A study of Astyanax mexicanus with 8 samples.

Results

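The genes described here belong to the unfolded protein response and the integrated stress response, and they were read in spheroids of CFL and SFL cells, liver-derived lines of the fish Astyanax mexicanus. They were chosen by name from a list of 10 symbols, of which 8 occur in the table of 27420 genes: hspa5, hsp90b1, dnajb9b, xbp1, atf4a, ddit3, trib3 and asns. The name asns belongs to 3 identifiers, each counted as a gene, so the set holds 10 genes. All 10 passed the filter of a mean of at least 1 TPM. No gene carries the names atf4b or atf6, and these are not analysed here. The CFL line came from the Pachon cave form and the SFL line from the surface form, and both are labelled WT. All cultures grew as free spheroids in ultra-low-attachment round-bottomed wells at 27 °C and carry the time label 28 days. Each line gave 4 libraries, 1 at each seeding of 10000, 25000, 50000 and 100000 cells per well, so no density has a replicate. Each form is represented by a single line, and line and form of origin cannot be told apart.

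The unfolded protein response adjusts the folding capacity of the endoplasmic reticulum (ER) to the load of secreted proteins. The sensors Ire1, Perk and Atf6 sit in the ER membrane and are held inactive by the chaperone Hspa5, also called BiP. Ire1 splices xbp1 mRNA, Atf6 is cut to release a transcription factor, and Perk phosphorylates eIF2-alpha, which lowers general translation while favouring translation of atf4. Perk shares that last step with the kinases Gcn2, Pkr and Hri, and the joint pathway is called the integrated stress response; its output includes ddit3 (Chop), trib3 and asns. Liver cells secrete much protein, and these pathways have been studied in liver for that reason. Splicing of xbp1, cleavage of Atf6 and translation of atf4 are not visible in gene-level mRNA values.

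Values are TPM, a share of all transcripts after division by transcript length, which allows levels to be compared between genes. Sequencing depth is unknown, because TPM keeps none of it. Genes encoding ribosomal proteins held 20.8% to 27.5% of all TPM in CFL and 17.4% to 22.3% in SFL, with the larger shares at 50000 and 100000 cells in both lines. Listed hepatocyte markers were scarce: 14 of 19 were found and their summed level was 5.12 to 14.3 TPM in CFL and 276 to 347 TPM in SFL. Of the SFL sum most was rbp4, while ttr was listed at 0 in all 8 libraries and fabp10a at 0 in all SFL libraries and 2 CFL libraries. The 7 genes found for the bile duct list included 2 named krt8 and no cdh1. They summed to 797 to 1185 TPM in CFL and 6873 to 9432 TPM in SFL. Most of that sum was keratins. The mean of anxa4 was 83.0 TPM in CFL and 196 TPM in SFL, and cftr, epcam and sox9b were at 0.23 TPM or less. The 11 fibroblast markers summed to 1195 to 3547 TPM in CFL and 942 to 1351 TPM in SFL. fn1a held most of the CFL sum, with a mean of 2169.6 TPM in CFL and 465 TPM in SFL. Means were also higher in CFL for pdgfra (13.7 against 0.14 TPM in SFL), pdgfrb (6.50 against 0.71 TPM) and lum (0.97 against 0.10 TPM). Those of acta2, tagln, col1a1a, col1a2 and dcn were lower in CFL, as was that of col1a1b (0 against 0.09 TPM). hand2 was listed at 0 in all 8 libraries. Leukocyte markers summed to at most 3.07 TPM in CFL and 2.93 TPM in SFL, and red cell markers to at most 3.85 TPM in CFL and 0.27 TPM in SFL. Endothelial markers summed to at most 30.1 TPM in CFL and 89.8 TPM in SFL. Nearly all of that was kdrl, and the other endothelial markers were at 0.76 TPM or less in every library. The part of these line differences in the results below was not tested. In RNA from whole spheroids, fewer cells of a type and less RNA per cell cannot be told apart.

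**Figure D1:**
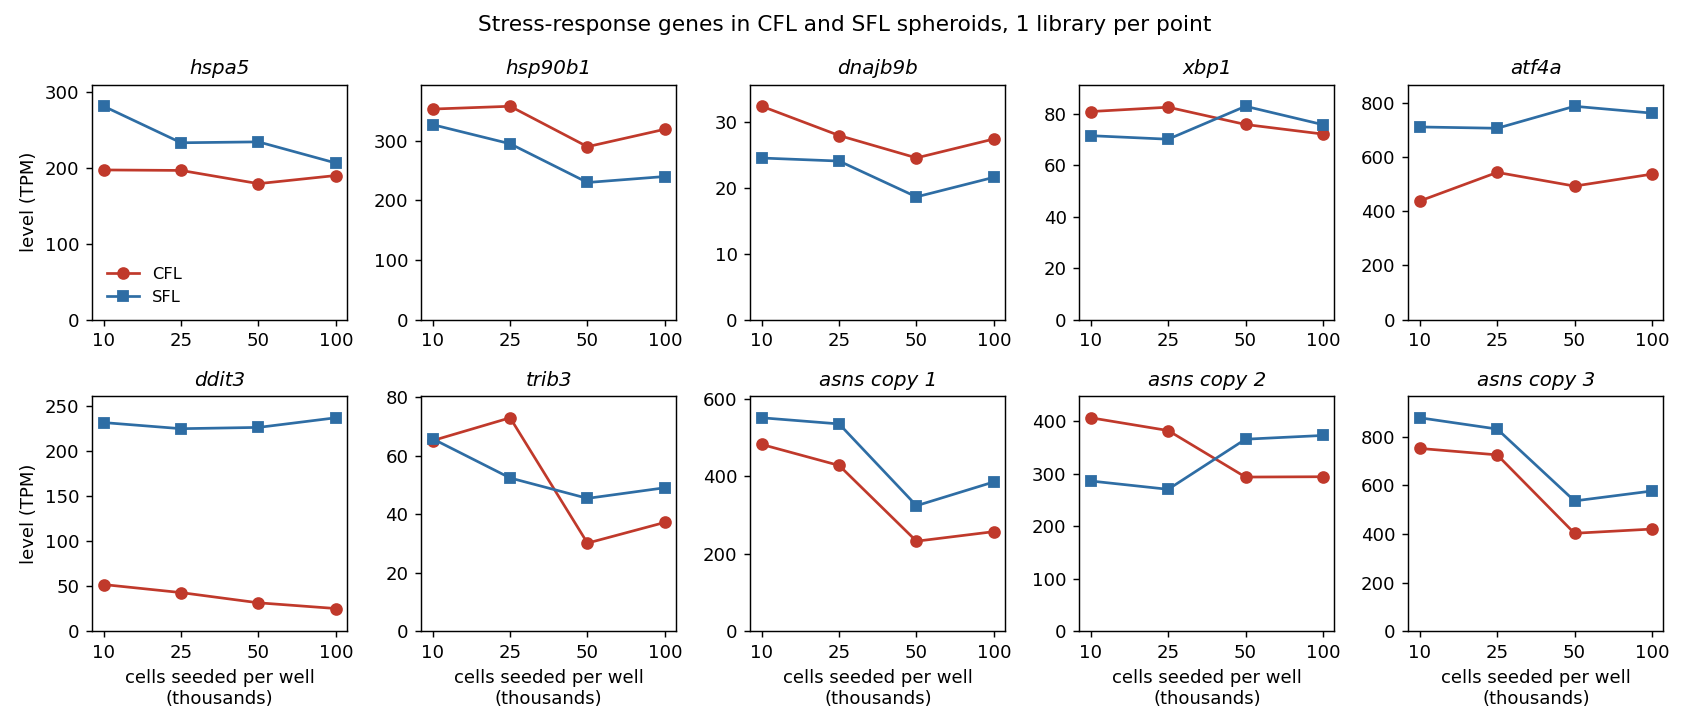
Level in TPM (vertical axis, from 0) of each gene against cells seeded per well (horizontal axis), with 1 library per point; red circles are CFL and blue squares SFL. The 4 ddit3 values of CFL, 25.2 to 51.8 TPM, lie far below the 4 of SFL, 225 to 237 TPM, while the lines cross for xbp1, trib3 and asns copy 2.

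The lines were compared first. CFL spheroids had less ddit3, atf4a and hspa5 mRNA than SFL spheroids and more hsp90b1 and dnajb9b. xbp1, trib3 and the 3 asns entries did not pass the test. The difference in ddit3 was about 6-fold and the other 4 that passed were under 1.5-fold. Of these calls, only those of ddit3 and atf4a held under all 15 alternative settings, which include other scalings and each library left out. Thus 5 of the 10 genes differed between CFL and SFL (limma adjusted p under 0.05), 2 of them higher and 3 lower in CFL. Among all 13783 genes tested, 58.9% differed, so the share of these genes that differed was no larger than the background. After median-of-ratios scaling, which sets the typical gene as equal between libraries, 2 were higher and 4 lower, beside 31.7% higher and 31.4% lower (63.1% in all) of all tested genes. The median difference of the 10 genes was -0.22 on the log2 scale, against -0.04 over all genes tested.

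Among the ER chaperones, hspa5 encodes the Hsp70 of the ER lumen and hsp90b1 its Hsp90, Grp94. In CFL, hspa5 stood at 198, 197, 179.6 and 190.3 TPM at 10000, 25000, 50000 and 100000 cells, and in SFL at 282, 234, 235 and 207 TPM. All CFL libraries were below all SFL libraries, and the gap was widest at 10000 and narrowest at 100000 cells. Of the 10 genes, 4 were separated in this way, 1 with CFL above and 3 with CFL below, against 49.0% of all tested genes (22.2% above and 26.8% below). The log2 difference, CFL minus SFL, was -0.31 (SE 0.08, limma adjusted p = 0.00958). That call was lost after median-of-ratios scaling (-0.26, limma adjusted p = 0.118) and after quantile normalization (-0.09, limma adjusted p = 0.395).

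The difference in hsp90b1 had the opposite sign. It stood at 353, 358, 290.1 and 319 TPM in CFL and at 327, 295, 230.1 and 240.1 TPM in SFL. CFL was the higher line at each density, although the ranges of the lines overlapped. The log2 difference was 0.28 (SE 0.09, limma adjusted p = 0.0300), and it missed the threshold when any of 4 libraries was left out (CFL at 25000 or 100000 cells, SFL at 50000 or 100000), with limma adjusted p from 0.0686 to 0.0964. Within a library, where scaling has no influence, there was 1.62 to 1.82 times as much hsp90b1 as hspa5 in CFL and 0.980 to 1.26 times as much in SFL. The lines did not overlap in this ratio, which was chosen after its values were seen and carries no test.

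dnajb9b encodes a J-domain co-chaperone of Hspa5, ERdj4 in mammals, where it is a target of Xbp1. It had the lowest mean of the 10 genes, at 32.4, 28.0, 24.6 and 27.4 TPM in CFL and 24.55, 24.1, 18.65 and 21.6 TPM in SFL. Each CFL value was above each SFL value, the nearest being the CFL library at 50000 and the SFL library at 10000 cells. The log2 difference was 0.33 (SE 0.11, limma adjusted p = 0.0303) and the call was lost without CFL at 10000, 25000 or 100000 cells, or without SFL at 10000 or 50000 cells. Without CFL at 100000 cells, 3 of the 10 genes remained called. Without CFL at 25000 or 100000 cells, or SFL at 50000, no gene of the 10 was called higher, since neither hsp90b1 nor dnajb9b passed. Its paralogue dnajb9a was lower and differed more, at 9.78 ± 0.59 TPM in CFL and 3.05 ± 0.41 TPM in SFL (SD, n = 4 each), which differed by 1.42 on the log2 scale (SE 0.12, limma adjusted p = 1.81e-05).

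xbp1 encodes the transcription factor made after splicing by Ire1. It stood at 80.9, 82.6, 75.85 and 72.1 TPM in CFL and at 71.5, 70.1, 82.9 and 75.8 TPM in SFL. CFL was higher at the smaller densities and SFL at the larger, and the log2 difference of 0.05 (SE 0.09, limma adjusted p = 0.639) did not pass.

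**Figure D2:**
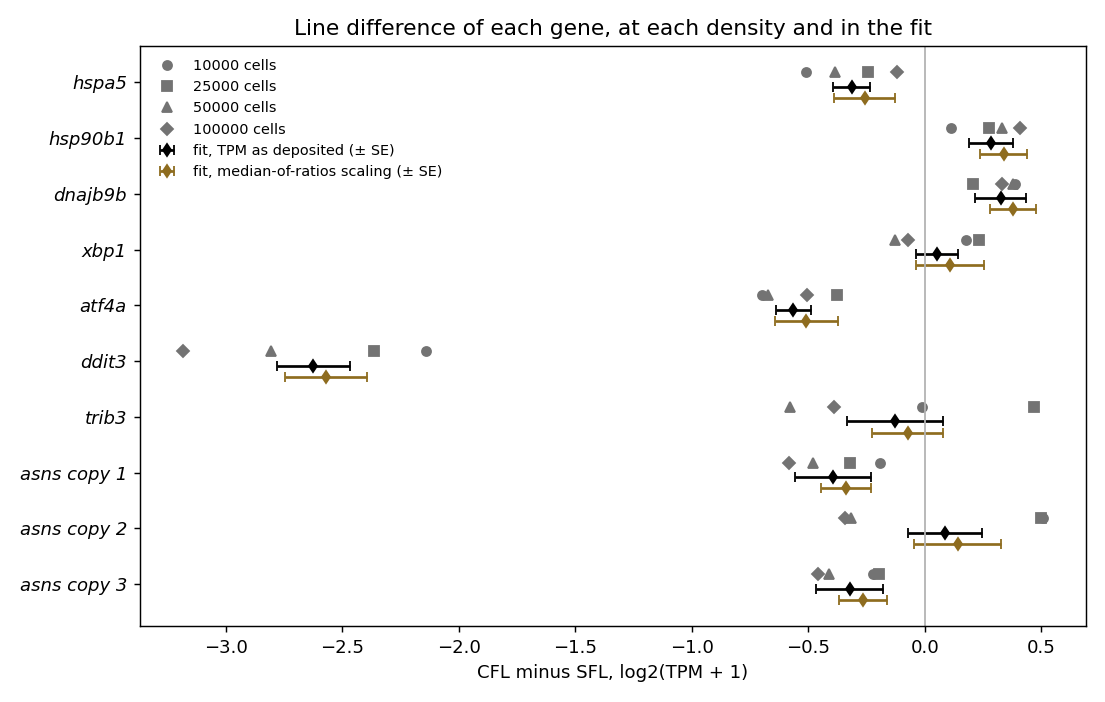
CFL minus SFL in log2(TPM + 1) for each gene (rows): grey symbols give the difference at each seeding density, and diamonds with bars give the limma estimate ± SE for TPM as deposited (black) and after median-of-ratios scaling (brown). ddit3 lies at -2.62, far from the other genes, and the hspa5 and hsp90b1 estimates lie on opposite sides of 0.

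In the Atf4 branch, atf4a encodes a transcription factor that is controlled largely at translation. Its mRNA was abundant, at 437, 543, 492 and 536 TPM in CFL and 710.0, 705, 786 and 761 TPM in SFL. The lines did not overlap. The log2 difference was -0.56 (SE 0.08, limma adjusted p = 0.000296), and it passed under all 15 alternatives, with values from -0.61 to -0.44.

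ddit3 encodes Chop, a transcription factor that in mammals promotes apoptosis under prolonged ER stress. It stood at 51.8, 42.9, 31.5 and 25.2 TPM in CFL and at 232, 225, 226 and 237 TPM in SFL. The 4 SFL libraries lay within a narrow band, while the CFL value was lower at each step up in seeding. Neither trait was kept by median-of-ratios scaling, after which the levels were 45.1, 37.3, 40.2 and 27.4 in CFL and 193, 195, 267 and 251 in SFL, the lines still far apart. The means were 37.8 ± 11.8 TPM in CFL and 230.1 ± 5.53 TPM in SFL (SD, n = 4 each), and the lines differed by -2.62 on the log2 scale (SE 0.16, limma adjusted p = 2.31e-06). Under the 15 alternatives it ranged from -2.75 to -2.41. Of all tested genes, 3.81% had a lower log2 difference. The order of levels differed accordingly: in SFL, ddit3 ranked beside hspa5, whose range overlapped its own, and above xbp1, whereas in CFL it ranked below xbp1 and overlapped trib3 and dnajb9b.

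Set against its regulator in the same library, ddit3 was 11.8%, 7.90%, 6.41% and 4.70% of the atf4a level in CFL and 32.6%, 31.9%, 28.8% and 31.2% in SFL. The CFL share was thus lower at every density and also lower at each larger seeding. This ratio too was chosen after its values were seen and has no test.

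trib3 encodes a pseudokinase that is induced by Atf4 and Chop and, in mammals, restrains both. It stood at 65.2, 73.0, 30.1 and 37.2 TPM in CFL and 65.8, 52.4, 45.4 and 49.05 TPM in SFL. The SFL values lay inside the range of the CFL values, and the log2 difference of -0.13 (SE 0.21, limma adjusted p = 0.621) did not pass.

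asns encodes asparagine synthetase, which makes asparagine from aspartate and glutamine and is a standard Atf4 target. The 3 identifiers that carry its name are called copy 1 (ENSAMXG00000029843), copy 2 (ENSAMXG00000035392) and copy 3 (ENSAMXG00000039240) here. How reads were divided between them cannot be read from the TPM values. Whether they are separate genes or duplicates in the genome assembly could not be told, and each counts as 1 of the 10 genes. Copy 3 was the most abundant, at 751, 725, 402 and 419.7 TPM in CFL and 877, 831, 535 and 576 TPM in SFL. Copy 1 stood at 482, 428, 232 and 257 TPM in CFL and 551, 535, 324 and 386 TPM in SFL. Both were lower in CFL at each density and lower at the larger seedings in both lines. Copy 1 was 0.578 to 0.642 of copy 3 in CFL and 0.605 to 0.669 in SFL, so this pair kept a nearly fixed ratio. Their log2 differences of -0.39 for copy 1 (SE 0.16, limma adjusted p = 0.0691) and -0.32 for copy 3 (SE 0.14, limma adjusted p = 0.0838) did not pass, but with density as a replicate block both did, at limma adjusted p of 0.00289 and 0.00397. Both also passed after median-of-ratios scaling (limma adjusted p = 0.0222 and 0.0486). With that pairing by density, 7 of the 10 genes were called.

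Copy 2 did not share this pattern. It stood at 406, 382, 294 and 294 TPM in CFL and at 286, 270.2, 366 and 373 TPM in SFL. CFL was above SFL at the 2 smaller densities and below it at the 2 larger ones, and the log2 line difference of 0.09 (SE 0.16, limma adjusted p = 0.661) did not pass. Copy 2 was 0.541, 0.527, 0.730 and 0.701 of copy 3 in CFL and 0.326, 0.325, 0.683 and 0.647 in SFL, higher at the larger seedings in both lines. The sum of the 3 copies was 1639.9, 1535, 928 and 971 TPM in CFL and 1714, 1636, 1225 and 1334 TPM in SFL.

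**Figure D3:**
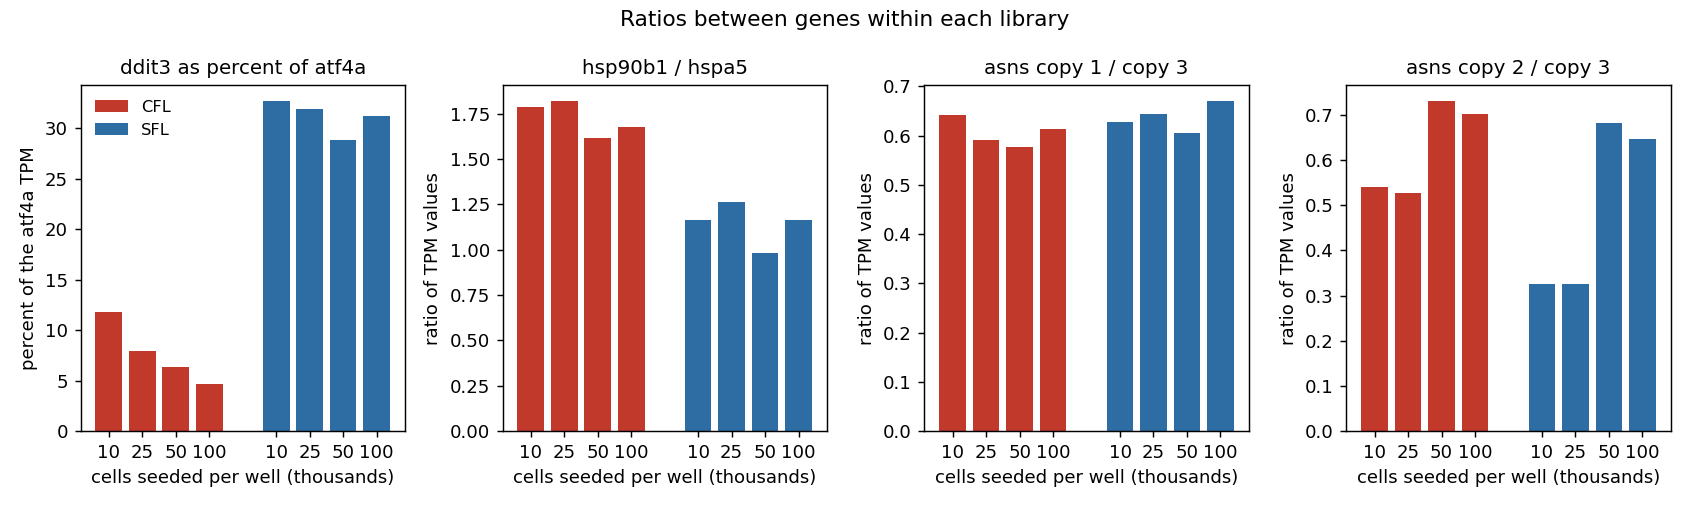
Ratios between genes of the same library (vertical axis, from 0; the first panel is in percent) for the 4 seedings, CFL in red at the left and SFL in blue at the right, with no error bars because each bar is 1 library. The ddit3 share of atf4a is 4.70% to 11.8% in CFL and 28.8% to 32.6% in SFL, and asns copy 1 keeps 0.578 to 0.669 of copy 3 in all 8 libraries while copy 2 does not.

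The second comparison set the larger seedings (50000 and 100000 cells) against the smaller ones (10000 and 25000). No spheroid size is given in the labels used here, and larger and smaller spheroids mean these seeding classes. As deposited, asns copies 1 and 3, trib3 and hsp90b1 were lower in the larger spheroids and none of the 10 genes was higher. Of all tested genes 44.8% were called lower and 3.25% higher (48.0% in all), so 4 of 10 is close to the background. All 4 calls, and those of every other gene, were lost when seeding entered as a slope on log2(cells per well) in place of the classes, with limma adjusted p from 0.0888 to 0.101 for the 4 genes. The median of all tested genes was itself lower by 0.30 on the log2 scale in larger spheroids, while the ribosomal share was larger. Median-of-ratios scaling moved the median to 0.04. It gave 2 genes lower (asns copies 1 and 3) and 2 higher (atf4a and xbp1) among the 10, beside 21.1% lower and 23.3% higher (44.4% in all) of all tested genes.

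Of the 10 genes, asns copies 1 and 3 fell under both scalings, that is, in TPM unchanged and in TPM set by median-of-ratios factors. If these copies are duplicates in the assembly, their calls are not separate results. Copy 1 averaged 245 TPM in larger and 455 TPM in smaller CFL spheroids, and 355 TPM in larger and 543 TPM in smaller SFL spheroids. Its log2 difference was -0.75 (SE 0.09, limma adjusted p = 0.000520) as deposited and -0.34 (limma adjusted p = 0.00869) after scaling. Copy 3 differed by -0.73 (SE 0.07, limma adjusted p = 0.000488) as deposited and -0.32 (limma adjusted p = 0.00965) after scaling. The larger and smaller libraries did not overlap in either line for either copy; of all tested genes 60.7% had both larger libraries below both smaller ones in CFL and 58.8% in SFL, and 11.3% in CFL and 9.30% in SFL had them above.

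For trib3 the as-deposited difference of -0.67 (SE 0.16, limma adjusted p = 0.00726) did not pass after scaling, at -0.26 (limma adjusted p = 0.155). hsp90b1 changed sign, with -0.31 (SE 0.07, limma adjusted p = 0.00583) as deposited and 0.10 (limma adjusted p = 0.290) after scaling, so it has no direction of its own here. atf4a was 0.10 higher as deposited (limma adjusted p = 0.295) and 0.52 higher after scaling (limma adjusted p = 0.00238). xbp1 showed 0.01 (limma adjusted p = 0.936) and 0.42 (limma adjusted p = 0.00896). Relative to the median of all genes as deposited, atf4a stood 0.40 and xbp1 0.31 higher, and asns copy 1 stood 0.45 lower. hspa5, dnajb9b, ddit3 and asns copy 2 passed under neither scaling. The differences as deposited and after scaling were -0.16 and 0.26 for hspa5 and -0.24 and 0.16 for dnajb9b. They were -0.35 and 0.06 for ddit3 and -0.01 and 0.41 for asns copy 2, so these signs too depended on the scaling.

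**Figure D4:**
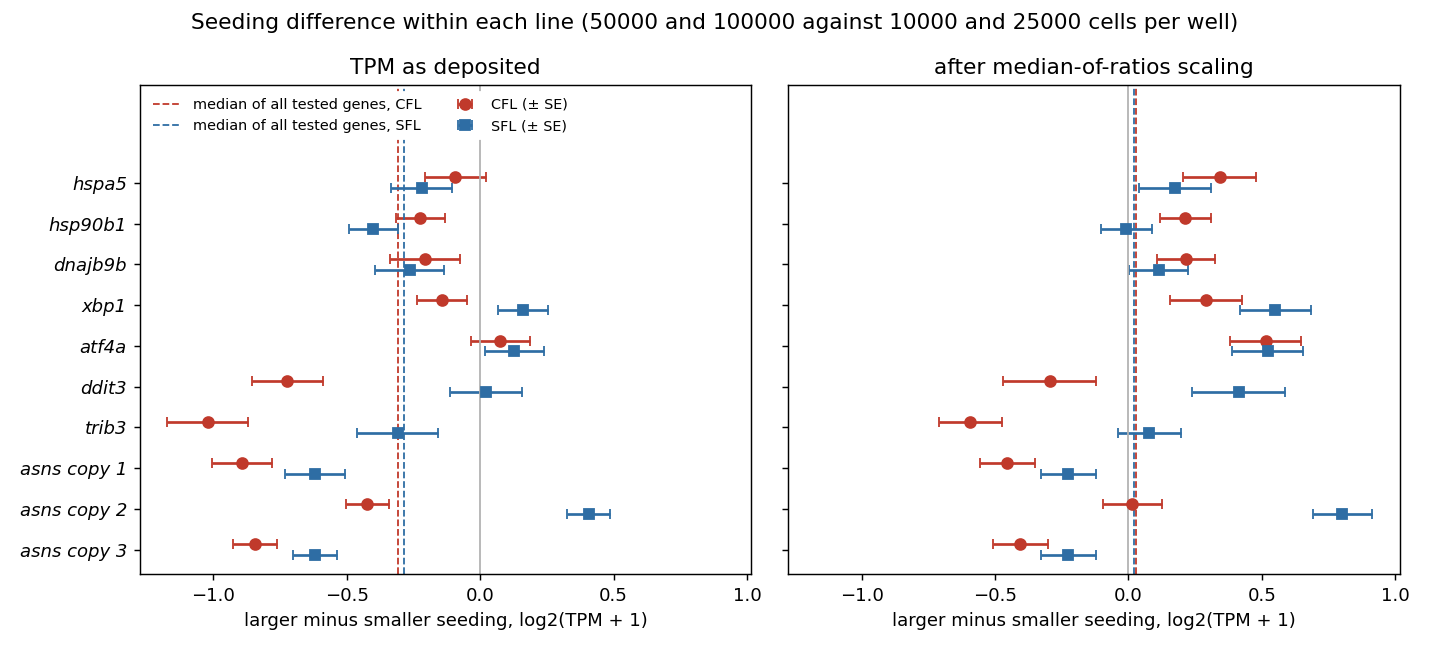
Larger minus smaller seeding in log2(TPM + 1) for each gene (rows) within CFL (red circles) and SFL (blue squares), ± SE, as deposited (left) and after median-of-ratios scaling (right); dashed lines mark the median of all tested genes. ddit3, trib3 and asns copy 2 have the widest gaps between the lines in both panels, with CFL the lower.

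Within CFL, 5 of the 10 genes were lower in larger spheroids and 0 higher (ddit3, trib3 and the 3 asns copies), against 34.0% lower and 2.43% higher (36.5% in all) of all tested genes. Within SFL, 3 were lower (hsp90b1 and asns copies 1 and 3) and 1 higher (asns copy 2), against 25.8% lower and 1.15% higher (27.0% in all). After median-of-ratios scaling, CFL had 3 lower (trib3 and asns copies 1 and 3) and 1 higher (atf4a), beside 16.6% lower and 16.7% higher (33.3% in all), and SFL had 0 lower and 3 higher (xbp1, atf4a and asns copy 2), beside 9.58% lower and 9.40% higher (19.0% in all). In CFL, ddit3 averaged 28.4 TPM in larger and 47.3 TPM in smaller spheroids (log2 difference -0.72, SE 0.13, limma adjusted p = 0.00726), and in SFL 232 TPM in larger and 228 TPM in smaller spheroids (0.02, limma adjusted p = 0.929). trib3 averaged 33.7 TPM in larger and 69.1 TPM in smaller CFL spheroids (-1.02, SE 0.15, limma adjusted p = 0.00479) and 47.2 TPM in larger and 59.1 TPM in smaller SFL spheroids (-0.31, limma adjusted p = 0.159). After scaling, the trib3 difference in CFL still passed (-0.59, limma adjusted p = 0.0107), while that of ddit3 did not (-0.30, limma adjusted p = 0.221).

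asns copy 2 moved in opposite directions as deposited, as 2.78% of all tested genes did by the separation of their libraries (3.16% after scaling). It averaged 294 TPM in larger and 394 TPM in smaller CFL spheroids (-0.42, SE 0.08, limma adjusted p = 0.00780), and 369 TPM in larger and 278 TPM in smaller SFL spheroids (0.41, SE 0.08, limma adjusted p = 0.0155). After scaling it was level in CFL (0.01, limma adjusted p = 0.939) and higher in larger SFL spheroids (0.80, limma adjusted p = 0.0219).

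The test of the difference between the lines was the interaction of line and seeding. No gene of the 10, and 0% of all tested genes, passed after adjustment, although 1132 of all tested genes had an unadjusted p under 0.05. asns copy 2 had an interaction of -0.83 (SE 0.11, limma adjusted p = 0.105). The interactions of ddit3 (-0.74, SE 0.19, limma adjusted p = 0.310) and trib3 (-0.71, SE 0.21, limma adjusted p = 0.418) were of similar size. A response limited to CFL is therefore not shown for these genes.

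Profiles over the 8 libraries were then compared by the root mean square difference of log2(TPM + 1) after centring each gene on its own mean. Among the 10 genes, the pairs in which each was the nearest to the other were asns copies 1 and 3 (0.07), hsp90b1 and dnajb9b (0.09), xbp1 and asns copy 2 (0.14) and hspa5 and atf4a (0.21). trib3 lay nearest to asns copy 3 (0.19), whose own nearest was copy 1. ddit3 had no close neighbour in the set, with 1.08 to atf4a as its smallest value. Among 7925 other genes with a symbol and a mean of at least 5 TPM, the nearest to ddit3 were rassf7a (0.16), robo1 (0.17) and bin2b (0.19). The nearest to hspa5 were gpn3 (0.04), cnep1r1 (0.06) and puf60a (0.06). asns copies 1 and 3 both had afg3l2 among their nearest genes (0.05 each), copy 2 had ccni (0.14), xbp1 (0.14) and dnal4a (0.15), copy 1 also had noc3l (0.07), and copy 3 also had xrn2 (0.04) and rbm19 (0.06).

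The wider pathway was described with lists of other genes, read beside the 27.6% higher and 31.3% lower calls in CFL among all tested genes. ER chaperones and folding enzymes tended to be higher in CFL, as hsp90b1 was and hspa5 was not. Of 34 tested, 18 were higher and 4 lower, with a median log2 difference of 0.58, against -0.04 over all genes. txndc12, a thioredoxin-like ER protein, stood at 69.8 ± 5.87 TPM in CFL and 17.3 ± 1.73 TPM in SFL (SD, n = 4 each). canx, the lectin chaperone calnexin, stood at 367 ± 175 TPM in CFL and 121 ± 48.9 TPM in SFL (SD, n = 4 each). The log2 differences of txndc12 and canx were 1.96 and 1.56 (limma adjusted p = 1.53e-06 and 0.000829). In CFL, canx was at 551 and 478 TPM at the smaller seedings and at 184 and 257 TPM at the larger. PDIA6, a disulfide isomerase listed under 2 identifiers, differed by 1.74 at the identifier in capitals, at means of 62.5 TPM in CFL and 18.1 TPM in SFL. The more abundant pdia6, looked up after its values were seen, differed by 0.52 (limma adjusted p = 0.00427), at 85.4 TPM in CFL and 59.8 TPM in SFL. Such pairs may divide reads. The 4 lower genes, named after their values were seen, were p4hb (-1.06), cdnf (-1.37), ero1a (-0.80) and mogs (-0.38). p4hb, the main protein disulfide isomerase, was at 393 TPM in CFL and 807 TPM in SFL at 25000 cells. cdnf was near the floor, at 0 to 0.51 TPM in CFL and 0.60 to 4.11 TPM in SFL. With the filter at a mean of 5 TPM, 18 genes of the list were higher and 3 lower. The translocon list held genes of protein entry into the ER (translocon and signal peptidase) and subunits of the oligosaccharyltransferase, which glycosylates proteins there. Its genes were also more often higher (14 of 27, with 4 lower, median 0.33). Of the oligosaccharyltransferase subunits, looked up after the values were seen, dad1, ostc, rpn1, rpn2 and stt3a were among the 14 and DAD1 among the 4. Of the 2 entries named ssr2, a subunit of the translocon-associated complex, the abundant entry was higher in CFL (1.39) and the other lower (-2.43). SSR4 was higher (1.77), at means of 12.4 TPM in CFL and 2.99 TPM in SFL. The more abundant ssr4, looked up after its values were seen, was lower (-0.49), at 58.8 TPM in CFL and 82.7 TPM in SFL.

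Genes of ER-associated degradation, which removes misfolded proteins, leaned the other way, with 5 higher and 13 lower of 26 (median -0.28). After median-of-ratios scaling the counts were 10 higher and 11 lower, so no direction is given for the list. RNF5 (-2.83), rhbdd1 (-1.95) and edem1 (-1.05) were lower in CFL, and aup1 (1.15) was higher. Of 31 sensors and transducers, 10 were higher and 11 lower (median -0.07). eif2ak3, which encodes Perk, was higher in CFL, at 48.1, 44.2, 12.7 and 18.95 TPM in CFL and 14.9, 16.25, 6.30 and 9.33 TPM in SFL (1.22, SE 0.32, limma adjusted p = 0.0110). Of the other eIF2-alpha kinases, looked up after the values were seen, eif2ak1 (Hri) was lower in CFL (-0.34, limma adjusted p = 0.0302), while eif2ak2 (Pkr, -0.51, limma adjusted p = 0.142) and EIF2AK4 (Gcn2, -0.22, limma adjusted p = 0.153) did not pass. The eif2ak1 call was lost after median-of-ratios scaling (-0.29, limma adjusted p = 0.0504). ppp1r15b, whose product lets eIF2-alpha be dephosphorylated, was at 6.30 ± 3.38 TPM in CFL and 0.21 ± 0.09 TPM in SFL (SD, n = 4 each), a log2 difference of 2.45 (limma adjusted p = 0.000101). map3k5, a stress kinase that in mammals acts downstream of Ire1, differed by 2.74, and the ER-anchored factors creb3l1 and creb3l3b by -1.92 and -1.99. creb3l3b averaged 2.65 TPM in CFL and 13.6 TPM in SFL. A related entry, creb3l3l, looked up after its values were seen, averaged 98.0 TPM in CFL and 80.1 TPM in SFL. It was higher in CFL (0.29, limma adjusted p = 0.0285).

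Known targets of Atf4 and Chop differed between the lines in both directions. Of 43 tested, 19 were higher and 12 lower in CFL (median 0.34). DDIT4L (-3.49) and sesn2, encoding Sestrin 2 (-2.38), were lower in CFL, as ddit3 was. slc7a11, the cystine transporter (2.37), and slc1a4, a neutral amino acid transporter, were higher. slc1a4 stood at 136, 139.6, 52.8 and 59.4 TPM in CFL; in SFL it had 0.21 TPM at 25000 cells and was listed at 0 at the other densities. The cytosolic tRNA synthetases, many of which are Atf4 targets in mammals, were mostly lower in CFL: 12 of 19 lower and 1 higher (median -0.49), the exception, named after its value was seen, being iars1 (0.36). The widest differences were in sars1 (-1.16), gars1 (-0.996), kars1 (-0.83) and farsb (-0.69).

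**Figure D5:**
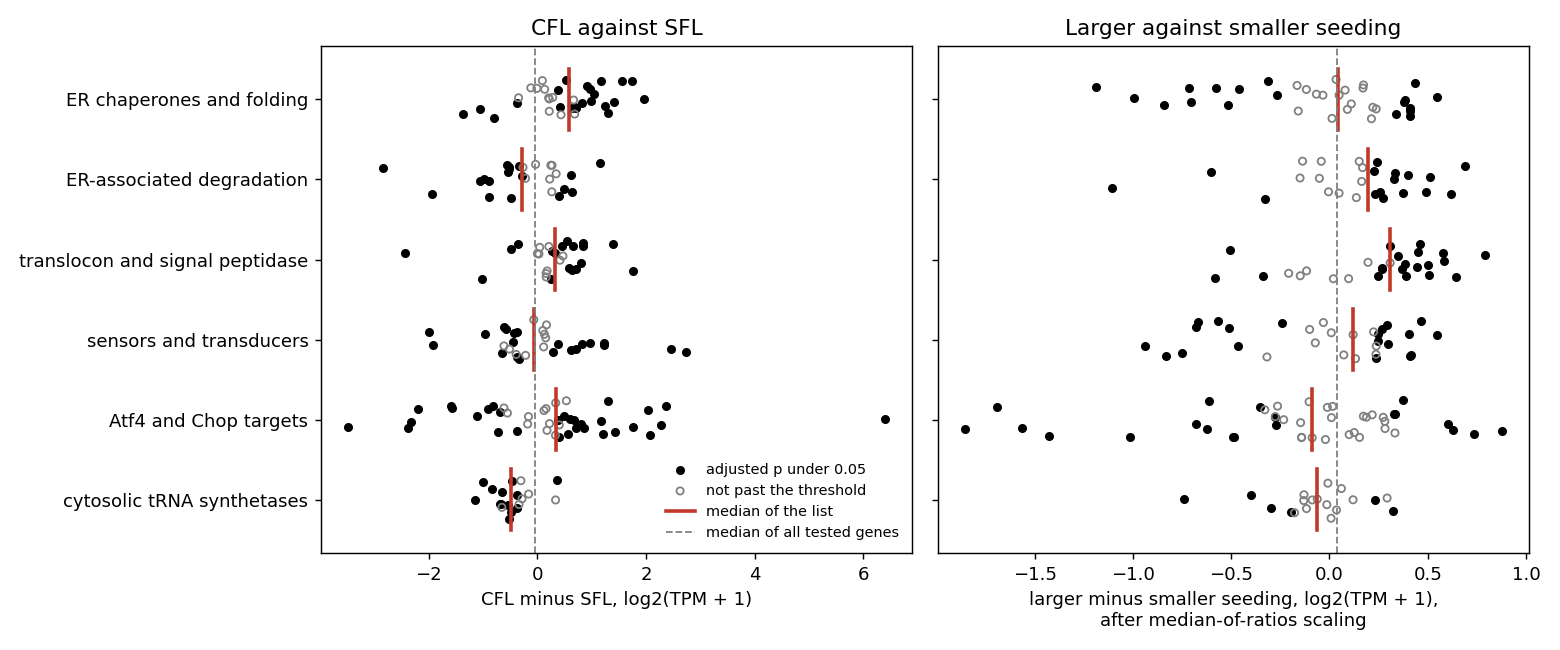
Each point is a gene of a pathway list, placed by its CFL minus SFL difference as deposited (left) or its larger minus smaller seeding difference after median-of-ratios scaling (right), both in log2(TPM + 1); filled points passed the threshold, red bars are list medians and the dashed line is the median of all tested genes. The ER chaperone median lies at 0.58 and the tRNA synthetase median at -0.49 in the left panel.

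The same lists were then read by seeding, beside 44.8% lower and 3.25% higher of all tested genes as deposited, and 21.1% lower and 23.3% higher after median-of-ratios scaling. Of 43 Atf4 and Chop targets, 27 were lower and 2 higher in larger spheroids as deposited, and 13 lower and 7 higher after scaling. Of 34 ER chaperones, 20 were lower and 0 higher as deposited, and 10 lower and 8 higher after scaling. Of 19 tRNA synthetases, 16 were lower and 0 higher as deposited, and 4 lower and 2 higher after scaling. The shares lower in these 3 lists were above that of all tested genes as deposited (62.8%, 58.8% and 84.2%), but after scaling that of the tRNA synthetases, 21.1%, was level with it. Of 27 genes on the translocon list, 8 were lower and 1 higher as deposited, and 3 lower and 17 higher after scaling. Of 26 genes of ER-associated degradation, 8 were lower and 0 higher as deposited, and 3 lower and 13 higher after scaling. In both of these lists the share lower as deposited (29.6% and 30.8%) was under that of all tested genes, and the share higher after scaling (63.0% and 50%) was above it. Of 31 sensors and transducers, 14 were lower and 0 higher as deposited, and 9 lower and 11 higher after scaling.

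The widest fall on the Atf4 list was that of slc7a11, which stood at 35.8 and 68.5 TPM in larger and 298 and 278 TPM in smaller CFL spheroids, and at 8.43 and 13.4 TPM in larger and 53.4 and 39.1 TPM in smaller SFL spheroids. It differed by -2.26 as deposited and -1.86 after scaling (limma adjusted p = 0.000488 and 0.000992), and the 2 entries named slc7a5 by -1.93 and -1.96 as deposited. ero1b, an oxidase that recharges disulfide isomerases (-1.54), uggt1, which senses misfolded glycoproteins (-1.37), mlec (-1.22), eif2ak3 (-1.22), traf2b (-1.32) and nck1b (-1.15) fell as deposited, and each passed after scaling as well. So did man1b1b (-1.36), edem1 (-0.90) and ube2j2 (-0.73) of ER-associated degradation, sec62 (-0.99), sec61a1 (-0.92) and tram1 (-0.75) of the translocon, and farsa (-1.15), aars1 (-0.81) and qars1 (-0.71) of the tRNA synthetases. After scaling, more genes were higher than lower in the ER-associated degradation list (13 against 3) and the translocon list (17 against 3). sec61g, the 1 translocon gene higher as deposited (0.37) and named after its values were seen, was also higher after scaling (0.79). Both genes of the Atf4 list that were higher in larger spheroids as deposited, likewise named after their values were seen, encode the stress protein Nupr1, nupr1a (0.46) and nupr1b (0.32).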

How the data were processed

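RNA was sequenced as stranded, polyadenylated libraries read singly over 75 bases, per the labels. The authors deposited a TPM value per gene and library; STAR 2.7.3a and RSEM 1.3.0 are named in the submitters' processing notes, while the genome build, annotation and strand setting are not given in the sources used here. All 8 value columns were mapped by sample title and 0 were left unmapped.

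Values were analysed as log2(TPM + 1) for genes with a mean of at least 1 TPM (13783 of 27420), so fold changes of low genes are understated. limma 3.58.1 in R 4.3.3 was fitted (eBayes with a trend) with line and log2(seeding) for CFL minus SFL, line and seeding class for larger minus smaller, and their interaction. p-values were Benjamini-Hochberg adjusted over all genes tested, at a threshold of 0.05. All fits used all 8 libraries, and p-values measure the spread between libraries that differ in density. Each SD with n = 4 was likewise taken over the 4 densities of a line, so it holds any effect of seeding. The fits were tested on simulated data. Median-of-ratios factors ran from 0.783 to 1.20.

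The genes, the pathway lists and the seeding classes were chosen with earlier results of these data known. A mitochondrial co-chaperone, grpel1, was listed among the ER chaperones. Subunits of the oligosaccharyltransferase (dad1, ddost, ostc, rpn1, rpn2, stt3a and stt3b) were listed with the translocon and signal peptidase. All list members named follow a rule on the widest called differences in each list (4 by line, 3 by seeding), except those said to be chosen after their values were seen. Libraries of equal seeding were taken as pairs only in the fit with a replicate block, not in the main fits. Their deviations from the line means correlated across genes with r of 0.514, 0.492, 0.639 and 0.308, which also holds the effect of density. The library of equal seeding was the best match in both directions at 50000 cells. At 10000 cells this held only for SFL, at 25000 only for CFL, and at 100000 for neither. Alternatives covered the pseudocount, the filter, the scaling, each library left out, a replicate block and a slope on seeding; leaving out both 50000-cell libraries was added after seeing the data.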

Additional observations from a re-analysis of the deposited data

Results flagged for a closer look

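The seeding difference of 2 genes ran in opposite directions in the lines, with both larger-seeding libraries below both smaller ones in CFL and above them in SFL. For asns copy 2 the interaction was -0.83 (limma adjusted p = 0.105) and for xbp1 -0.30 (limma adjusted p = 0.608), so neither passed. Of all tested genes, 2.78% were separated in opposite directions in this way. After median-of-ratios scaling neither gene was: both larger xbp1 libraries were above both smaller ones in each line, and the asns copy 2 classes overlapped in CFL.

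In 20 groups of 4 libraries (10 genes in each line), 0 held a library that stood apart from the other 3 by Dixon's test, where chance gives about 1. The libraries of a group differ in seeding. Where they split into the larger and smaller seeding classes, no library stands alone and the test cannot flag one. The absence of flags therefore does not show that no library was aberrant.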

How the results depend on the processing

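Of 440 values of the 10 genes under alternatives, 409 kept their direction and their side of the threshold, or had no call to lose; 17 lost a call, 13 gained it and 1 reversed, hsp90b1 with seeding at 0.10 after median-of-ratios scaling. That scaling also turned sesn2 (0.34), sars1 (0.23) and aup1 (0.40) with seeding. None of these was called as deposited, and each passed after scaling (limma adjusted p = 0.0410, 0.0339 and 0.0116). Among genes named after their values were seen, p4hb (0.41), mogs (0.38), eif2ak1 (0.29) and creb3l3l (0.30) turned in the same way. So did ostc (0.35), rpn1 (0.27), rpn2 (0.37) and stt3a (0.31) of the oligosaccharyltransferase. iars1 and pdia6 were called lower as deposited and lost that call as they turned (0.06 and 0.05). Line calls numbered 8120, and 9815 with density as a replicate block; the block added asns copies 1 and 3 and removed no call among the 10 genes. Leaving out each library gave 7079 to 8364 line calls, 5416 to 6545 seeding calls and 0 to 5 interaction calls, of which none was among the 10 genes. In those fits an arm of 1 library is assumed to vary like the others. A slope on log2(seeding) in place of the classes gave 0 calls (5026 at an unadjusted p under 0.05), against 6622 for the classes, and asns copies 1 and 3 then had limma adjusted p of 0.0888; the cause was not tested. Without both 50000-cell libraries 6 interaction calls were made, none among the 10 genes. Depth is unknown, so counting error could not be given.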
